A study of Arabidopsis thaliana with 16 samples.

Results

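Phosphoribulokinase (PRK, AT1G32060) was followed across an expression array of Arabidopsis thaliana that compared the ppi2 mutant with its wild type (WT), both in ecotype Wassilevskija. Its probe was identified as the probe whose only gene in the platform annotation is PRK, which gave 1 probe of the 3439 on the array and 1 of the 689 RefSeq genes that a single-gene probe measured. None of the 870 probes annotated with several genes listed PRK, so its transcript was read by this probe alone. There were 8 WT and 8 ppi2 samples of total RNA. The labels name no tissue, age, growth condition or treatment. The ppi2 mutant lacks Toc159, a receptor for precursor proteins at the outer envelope of the chloroplast, and its seedlings are known to be albino. The comparison asks which transcripts differ where chloroplast protein import is impaired.

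PRK carries out the step of the Calvin cycle that regenerates ribulose bisphosphate, the acceptor that Rubisco joins to carbon dioxide, at the cost of ATP from the light reactions. It is encoded in the nucleus, made in the cytosol as a precursor with a transit peptide, and imported into the chloroplast stroma. The enzyme is active in the light, when thioredoxins reduce it, and in the dark it is held inactive in a complex with the small protein CP12 and glyceraldehyde-3-phosphate dehydrogenase.

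The deposited intensities ran from 0 to a top value of 100, and PRK was at neither end in any sample. Consecutively numbered samples of a genotype resembled each other more than any other sample of that genotype, and each such pair was averaged and counted once (n = 4 pairs per genotype). The labels do not say what the pairs are or whether they come from separate plants, so the p-values speak only of the variation among these samples, and that variation may be technical. The WT pairs fell into subsets. Across all probes the correlation was 0.898 between WT pairs 1 and 2, 0.885 between WT pairs 3 and 4, and 0.759 to 0.812 from one subset to the other. WT pairs 3 and 4 also had the lowest sample medians, 0.0976 to 0.124, compared with 0.198 to 0.212 in WT pairs 1 and 2 and 0.168 to 0.269 in ppi2. Results are therefore also given against each WT subset. Whether the differing medians have a part in any result was not tested.

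The PRK transcript was lower in every ppi2 sample than in any WT sample. In the WT samples 1 to 8 the deposited PRK intensity was 0.645, 0.847, 1.08, 1.23, 1.27, 1.13, 1.34 and 1.03. In the ppi2 samples 1 to 8 it was 0.506, 0.498, 0.51, 0.491, 0.495, 0.558, 0.32 and 0.278. The brightest ppi2 sample, at 0.558, thus lay under the dimmest WT sample, at 0.645, and the gap between the groups was narrow on this scale. WT sample 1 was the lowest of its group, and ppi2 samples 7 and 8 were lower than the other 6 mutant samples. Relative to the median probe of the same sample, PRK was 3.22 to 13.7 times as bright in WT and 1.65 to 2.34 times as bright in ppi2.

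After quantile normalization, which gives every sample the same distribution of intensities, the PRK level in WT pairs 1 to 4 was 0.861, 0.992, 2.04 and 2.47. In ppi2 pairs 1 to 4 it was 0.408, 0.327, 0.417 and 0.321. The genotypes did not overlap, and WT pairs 3 and 4 stood clearly above WT pairs 1 and 2. The low deposited values of ppi2 pair 4 lost their distance on this scale, where the pair lay beside ppi2 pair 2. The geometric mean fell from 1.44 in WT to 0.365 in ppi2, a 3.94-fold decrease (log2 difference, ppi2 minus WT, of -1.98 ± 0.37 SE, 95% interval -2.86 to -1.09, limma with Benjamini-Hochberg adjusted p = 0.00935 over all probes). The interval corresponds to a decrease of 2.14-fold to 7.27-fold. Of all probes, 28.6% passed this test, 14.4% as lower and 14.2% as higher in ppi2, so a call as such was common on this array. A fall at least as large as that of PRK was seen in 192 probes, or 5.58%. The labels name no tissue, and fewer cells with the transcript and less of it per cell cannot be told apart.

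**Figure D1:**
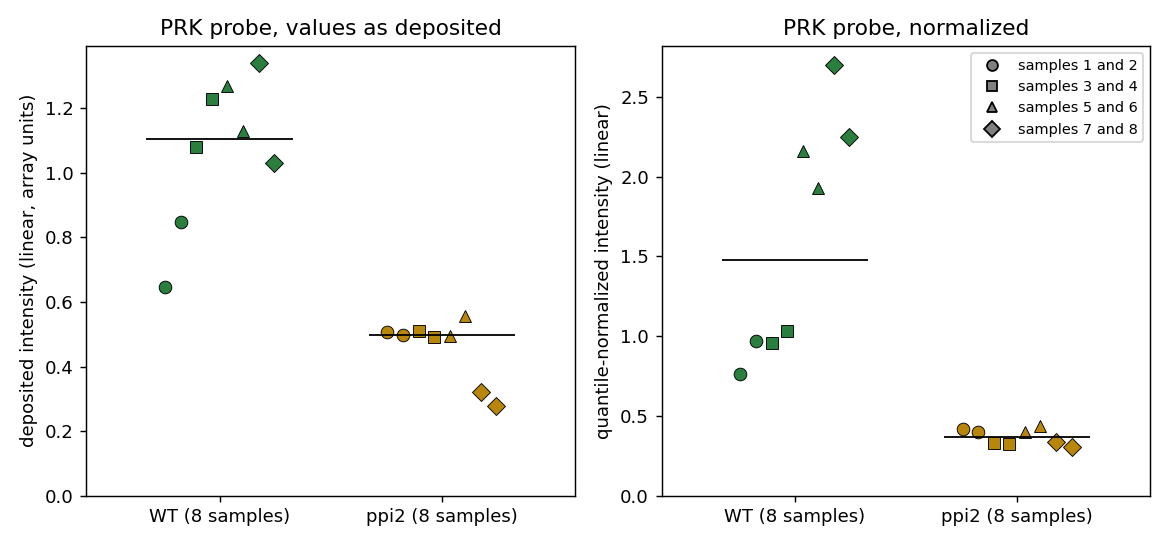
Intensity of the PRK probe in each of the 16 samples, as deposited (left) and after quantile normalization (right), both on linear axes that start at 0. Symbols mark the consecutively numbered samples that were averaged, and the horizontal line is the group median. All 8 ppi2 samples lie below all 8 WT samples in both panels, and only after normalization do WT samples 5 to 8 (1.93 to 2.7) separate from WT samples 1 to 4 (0.763 to 1.03).

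The size of the fall depended on the WT subset and on the scaling, while its direction did not. PRK was 2.53-fold lower in ppi2 against WT pairs 1 and 2 (limma adjusted p = 0.00578) and 6.14-fold lower against WT pairs 3 and 4 (limma adjusted p = 0.000641). These subsets were chosen from the same values, and testing each alone leaves out the spread between them. The SE was 0.15 and 0.16 there, compared with 0.37 against all WT pairs. The p-values against a subset therefore do not cover the spread between the WT subsets. In the values as deposited, where ppi2 stood 0.30 above WT in log2 for the median of all probes, PRK was 2.35-fold lower (limma adjusted p = 0.0126). The WT pairs spread with an SD of 0.752 on the log2 scale and the ppi2 pairs with an SD of 0.202. The median SD of all probes was 0.627 in WT and 0.273 in ppi2. It counts probes held at the floor in every sample, which do not vary, so it is a low standard for PRK. The samples within a pair differed in their PRK level by 0.11 to 0.35 on the log2 scale in WT and by 0.050 to 0.16 in ppi2, less than the distance between the genotypes.

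The place of PRK among all probes of a sample does not depend on how samples are scaled to each other. Ranked from the brightest probe, PRK stood between place 148 and place 549 of 3439 in the WT samples. In the ppi2 samples it stood between place 930 and place 1251. As a percentile, with 100 for the brightest probe, WT pairs 1 to 4 were at 85.8, 87.8, 94.3 and 95.3, and ppi2 pairs 1 to 4 at 71.3, 65.6, 71.8 and 65.1. PRK thus left the top fraction of probes in every mutant pair but remained above the median probe in all 16 samples. The mean percentile went from 90.8 ± 4.71 (SD, n = 4) in WT to 68.5 ± 3.59 (SD, n = 4) in ppi2, a difference of -22.3 ± 2.96 percentile points (SE), with p = 0.0286 in a two-sided exact permutation test, the smallest value that 4 pairs against 4 allow. All 8 ppi2 samples ranked below all 8 WT samples for PRK, as they did for 9.83% of all probes. With WT pairs 1 and 2 as the control the difference was -18.3 points, with WT pairs 3 and 4 it was -26.3 points, and in these subsets the smallest possible exact p is 0.0667. A rank reflects the brightness of a probe, which depends on the probe as well as on the transcript, so it is not a measure of how abundant PRK is against other genes.

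**Figure D2:**
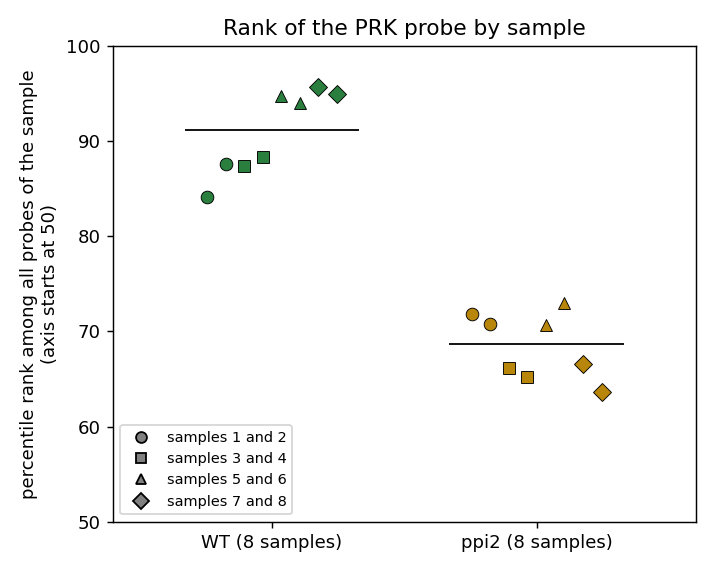
Percentile rank of the PRK probe among all probes of the same sample (100 is the brightest; the axis starts at 50), for 8 WT and 8 ppi2 samples, with the group median as a line. WT samples lie between 84.1 and 95.7 and ppi2 samples between 63.6 and 73.0.

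Few other genes of carbon fixation had a probe of their own. Of the 21 listed Calvin cycle enzymes 2 were measured, PRK and SBPASE (AT3G55800), the sedoheptulose bisphosphatase that acts upstream of PRK in the same regenerative branch. SBPASE was listed at 0 in all 16 samples and gave no comparison. None of the 14 listed photorespiration genes, 19 chloroplast import genes or 9 markers of roots and non-green plastids was measured by a single-gene probe. Toc159 and the presence of roots or non-green plastids could therefore not be checked. Antenna and photosystem genes, the markers set for green tissue, were measured in part and are given below.

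Of the 14 listed Calvin cycle regulators and thioredoxin-system genes 2 were measured, of which 1 rose and 1 fell. Of all probes, 14.2% passed as higher and 14.4% as lower in ppi2, so these 2 genes give no pattern for the list. NTRC (AT2G41680), a plastid reductase with its own thioredoxin domain that takes electrons from NADPH, was at normalized levels of 0.229, 0.167, 0.248 and 0.134 in WT pairs 1 to 4. It was at 0.349, 0.478, 0.71 and 0.805 in ppi2 pairs 1 to 4. NTRC rose 2.94-fold with no overlap between the genotypes (log2 difference 1.56 ± 0.33 SE, limma adjusted p = 0.0136). In the values as deposited its log2 difference was 2.28, and its call was lost against WT pairs 1 and 2 alone (1.51, limma adjusted p = 0.0543). AT2G04700, also on this list, fell 3.21-fold (-1.68 ± 0.32 SE, limma adjusted p = 0.0103). Its levels were 0.167, 0.262, 0.203 and 0.483 in WT pairs 1 to 4 and 0.0698 to 0.0862 in the ppi2 pairs, near the floor of 0.0338, and with the floor raised to the 25th percentile it was 2.09-fold lower and missed the threshold (limma adjusted p = 0.0576).

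Of the 13 genes listed for Rubisco assembly, chloroplast chaperonin subunits among them, 3 were measured. Of these 2 fell (AT3G47650 and Cpn60beta4), 0 rose and 1 missed the threshold. Their median log2 difference, which is that of AT3G47650, was -1.60, against 0.00 over all probes. These 3 genes give no pattern for the list. AT3G47650 fell 3.04-fold, from 0.779, 0.439, 1.52 and 1.5 in WT pairs 1 to 4 to between 0.274 and 0.352 in ppi2 (-1.60 ± 0.42 SE, limma adjusted p = 0.029). Like PRK, AT3G47650 stood higher in WT pairs 3 and 4 after normalization. As deposited, its WT samples ran from 0.456 to 0.798. Relative to WT pairs 3 and 4 it was 4.89-fold lower in ppi2, compared with 1.89-fold relative to WT pairs 1 and 2 (limma adjusted p = 0.0609). In the values as deposited it was 1.67-fold lower (limma adjusted p = 0.00854). Its call was lost when WT pair 3 or 4 or any ppi2 pair was left out (limma adjusted p = 0.0606 to 0.0778). Cpn60beta4 (AT1G26230), a chloroplast chaperonin subunit known in Arabidopsis for folding a subunit of the NDH complex, fell 3.27-fold from a dim WT level of 0.195 (-1.71 ± 0.32 SE, limma adjusted p = 0.00926). With the floor raised to the 25th percentile Cpn60beta4 was 1.62-fold lower and missed the threshold (limma adjusted p = 0.106). Cpn60beta3 (AT5G56500), another chaperonin subunit, differed by -0.59 ± 0.27 SE (95% interval -1.23 to 0.06, limma adjusted p = 0.155), a sign that turned in the values as deposited (0.31). Over these Calvin cycle, regulator and assembly lists together, 7 of 48 genes were measured, of which 1 rose and 4 fell. PRK itself and Cpn60beta4 are among those that fell. Of all probes, 14.2% passed as higher and 14.4% as lower in ppi2.

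**Figure D3:**
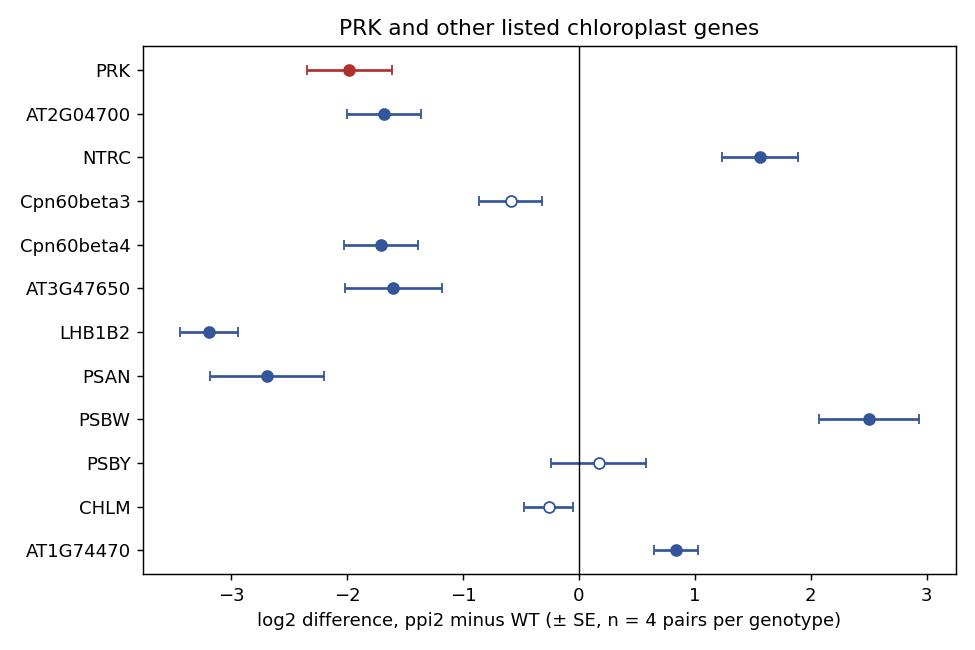
Log2 difference between ppi2 and WT (± SE, n = 4 pairs per genotype) for PRK (red) and the other listed chloroplast genes with a probe of their own. Filled points passed the limma test and open points did not, and SBPASE is left out because it was listed at 0 in every sample. PRK, at -1.98, lies between PSAN (-2.69) and Cpn60beta4 (-1.71).

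Whether PRK changed by the same amount as genes of the light reactions and of chlorophyll synthesis was tested on the log2 difference between the probes in each pair, which leaves the brightness of the probes out of account. There were 6 such genes above the floor in every sample, and 5 of them changed by a different amount than PRK (each exact permutation p = 0.0286, adjusted p = 0.0343 over the 6 genes). By the same exact permutation test, without adjustment, 71.2% of the 2017 probes above the floor in every sample changed by a different amount than PRK, so such a difference was common on this array.

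LHB1B2 (AT2G34420), a chlorophyll-binding protein of the antenna, fell further than PRK. Its own level ran from 11.2 to 23.4 in the WT pairs and from 1.51 to 2.22 in the ppi2 pairs. The fall of PRK was smaller than that of LHB1B2 by 1.21 ± 0.32 (SE) on the log2 scale, with no overlap of the pairs. After cyclic loess normalization this difference was 0.73 and did not pass (exact permutation test, adjusted p = 0.103). With the subsets of WT as the control it was 1.56 (pairs 1 and 2) and 0.86 (pairs 3 and 4).

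PSAN (AT5G64040), a lumenal subunit of photosystem I, was closest to PRK in the size of its change. The WT pairs 1 to 4 of PSAN were at 1.97, 2.66, 5.63 and 8.4 and the ppi2 pairs at 0.481, 0.527, 0.641 and 0.876, so that it shared the high levels of PRK in WT pairs 3 and 4. The fall of PRK was smaller by 0.71 ± 0.28 (SE) on the log2 scale, which did not pass the test (exact permutation adjusted p = 0.0857), and it passed without ppi2 pair 4 (0.95, exact adjusted p = 0.0286). A value that misses the threshold does not show that both changed alike.

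For the remaining genes the change of PRK lay below their own. PSBW (AT2G30570), one of the small photosystem II subunits, rose in ppi2 (limma adjusted p = 0.00717), and the change of PRK lay 4.47 ± 0.41 (SE) below that of PSBW on the log2 scale. The PSBW probe was at the top of the scale, 100, in 1 of the 8 ppi2 samples. How the scale was set is not given, so whether its level in that sample was cut off is not known. Against AT1G74470, geranylgeranyl reductase, which supplies the phytol of chlorophyll, PRK changed by -2.82 ± 0.49 (SE), with -2.03 for WT pairs 1 and 2 and -3.61 for WT pairs 3 and 4. Against PSBY (AT1G67740), another small photosystem II protein, the difference was -2.15 ± 0.48 (SE), and against CHLM (AT4G25080), a methyltransferase of chlorophyll synthesis, it was -1.72 ± 0.33 (SE). PSBY and CHLM did not pass the test themselves, with log2 differences of 0.17 ± 0.41 and -0.26 ± 0.21 (limma adjusted p = 0.829 and 0.408). Without ppi2 pair 2 the difference between PRK and PSBY did not pass (-2.07, exact adjusted p = 0.0686).

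The probes whose pattern was most like that of PRK were sought among 391 other single-gene probes above the floor in every sample, by Pearson's r of the normalized log2 levels over the 16 samples. These samples share 2 genotypes and come in pairs, so the coefficients are descriptions. The median r was -0.0707, and 24 probes were above 0.9. AT5G53920 came first with r = 0.974, followed by AT4G00170 (0.971), PSAN (0.968), AT1G54500 (0.965) and AT1G32730 (0.963). Since PRK separated the genotypes, a choice by likeness to PRK fixed that these probes were lower in ppi2, and their differences are given with no test. They were 7.99-fold lower for AT5G53920, 2.88-fold for AT4G00170, 6.46-fold for PSAN, 2.21-fold for AT1G54500 and 4.43-fold for AT1G32730.

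In the normalized levels the likeness had 2 parts, the step between genotypes and the split within WT. Over the 8 WT samples alone the coefficients of the same 5 probes with PRK were 0.953, 0.936, 0.977, 0.895 and 0.798. Over the 8 ppi2 samples they were 0.206, -0.00952, -0.388, -0.508 and 0.748, highest for AT1G32730. As deposited, AT5G53920 ran only from 0.575 to 0.732 over the WT samples, compared with 0.62 to 1.66 over the normalized WT pairs. PSAN ran from 1.73 to 5.0 as deposited and from 1.97 to 8.4 after normalization. Coefficients within WT were not computed for the deposited values, and whether the scaling has a part in the split was not tested. In the values as deposited, on a log2 scale and over all 16 samples, the coefficient was 0.404 for AT1G54500 and 0.813 to 0.927 for the others. The log2 difference of AT1G54500 between genotypes was only -0.25 there. AT4G00170 was then 1.61-fold lower in ppi2, PSAN 4.28-fold, AT5G53920 4.77-fold and AT1G32730 2.92-fold. With WT pairs 1 and 2 as the control AT5G53920 was 5.32-fold lower and PSAN 3.73-fold, while WT pairs 3 and 4 as the control gave 12-fold for AT5G53920 and 11.2-fold for PSAN.

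The pattern most opposite to PRK was that of AT1G76450 (r = -0.987), followed by AT1G10310 (-0.973) and AT3G44050 (-0.965). AT1G76450 was at 2.07, 1.81, 0.225 and 0.133 in WT pairs 1 to 4 and at 25.8, 22.5, 27.5 and 35.4 in ppi2 pairs 1 to 4. It was lowest in the WT pairs where PRK was highest, as the choice of opposite probes favours. Over the WT samples alone the 3 coefficients were -0.969, -0.96 and -0.975, and over the ppi2 samples -0.223, -0.0277 and -0.595. AT1G10310 was 4.18-fold and AT3G44050 4.04-fold higher in ppi2, a direction fixed by their choice and given with no test. Relative to WT pairs 1 and 2 the log2 difference was 3.82 for AT1G76450, 1.19 for AT1G10310 and 1.09 for AT3G44050, and relative to WT pairs 3 and 4 it was 7.31, 2.93 and 2.94. For AT1G76450 it was 6.18 without WT pair 1 and 4.86 without WT pair 4. In the values as deposited it was 2.79 for AT1G10310 and 2.71 for AT3G44050. There the coefficients with PRK on a log2 scale were weaker, at -0.87 for AT1G76450, -0.789 for AT1G10310 and -0.821 for AT3G44050.

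**Figure D4:**
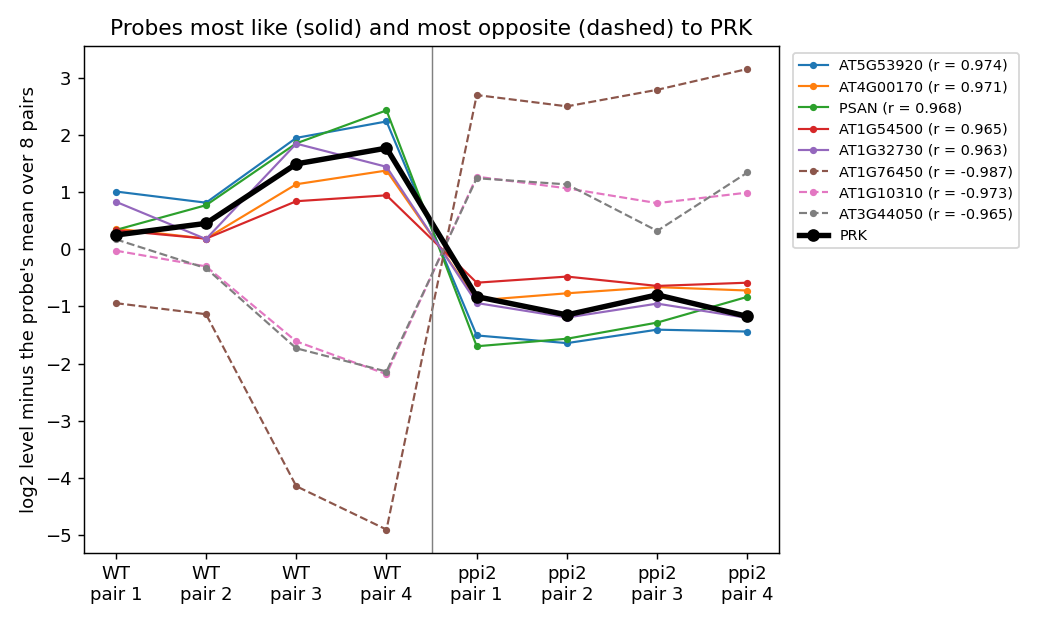
Normalized log2 level of PRK (black) and of the 5 most similar (solid) and 3 most opposite (dashed) probes in each averaged pair, each minus the probe's own mean over the 8 pairs. Lines join the points of a probe and imply no order among pairs; PRK and the similar probes are highest in WT pairs 3 and 4 and low in all ppi2 pairs, and the opposite probes are lowest in WT pairs 3 and 4.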

How the data were processed

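The authors' deposited table held linear intensity values for 16 samples. Per the labels, 8 were WT and 8 ppi2. Quantification, background correction and scaling are not given in the sources used here, nor is the array's genome build. Probes were named from the platform annotation: 692 had 1 gene, 870 several, and 1877 were not listed. Of the 692, 690 matched RefSeq genes (TAIR10.1), used for names only. No sequence was used.

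Positive-value sample medians spanned 1.70 on the log2 scale, so intensities were quantile-normalized. A floor was applied at the 5th percentile of positive intensities, 0.0338 (log2 -4.89). Each sample correlated best with its consecutive partner (0.902 to 0.938 in WT, 0.959 to 0.979 in ppi2), and partners were averaged. Differences between genotypes came from lmFit and eBayes of limma 3.58.1 (R 4.3.3), with Benjamini-Hochberg adjustment over 3439 probes at 0.05. The procedure was tested on simulated data. Their noise had the same SD in both genotypes and no WT subsets, so they cannot show how the procedure handles those features. Single values were compared by exact permutation over pairs in Python 3.11.15. The number of arrays limits the precision.

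Named were PRK, listed genes with their own probe, and the 5 probes most like and 3 most opposite to PRK. PRK and the lists were chosen with earlier results of these data known. Probes with several genes were not named. Alternatives covered normalization, floor, zeros, dim probes, pairing, the variance trend, omitted pairs and WT subsets.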

Additional observations from a re-analysis of the deposited data

Results flagged for a closer look

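Of 38 groups of 4 pairs examined for PRK and the other named genes, 1 held a pair far from the other 3, where a rate of 1 in 20 would give 1.9. It was PSBW, one of the genes set against PRK, with a log2 level of 2.50 in WT pair 1 and 4.13 to 4.37 in the other WT pairs. Neither genotype's PRK levels held such a pair.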

How the results depend on the processing

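The fall of PRK kept its direction and passed the test in all 22 alternatives, with limma adjusted p from 1.36e-05 to 0.0368. The log2 differences ran from -2.62 to -1.23, and from -2.23 to -1.72 when a pair was left out. The lowest p came with every sample its own replicate, which counts partner samples as independent although they resemble each other. The rank difference kept its direction in all 13 of its alternatives (-29.5 to -18.3 points). Same-numbered WT and ppi2 pairs deviated together in pairs 1, 2 and 4 (0.381, 0.307 and 0.33) but not in pair 3 (0.0313), so the numbers were not taken to pair the samples. With the pair number as a replicate block PRK differed by -1.98 (limma adjusted p = 0.0368), and NTRC did not pass (1.56, limma adjusted p = 0.057). The number of probes past the threshold was 984, and it was 686 to 748 without any 1 ppi2 pair, 837 to 1087 without any 1 WT pair, 819 with the floor at the 25th percentile, 846 with the pair number as a replicate block, 1616 with every sample its own replicate and 1719 with the sample number as a replicate block. In the values as deposited 647 probes were higher and 235 lower in ppi2 (73.4% higher, against 49.6% after quantile normalization), where AT1G74470 did not pass (1.38, limma adjusted p = 0.0689). It also missed against WT pairs 1 and 2 (0.69, 0.103). With median centring PSBW did not pass (1.73, limma adjusted p = 0.0705). The sign turned for CHLM as deposited (0.55) and against WT pairs 1 and 2 (0.01), for PSBY without WT pair 2 (-0.11, where leaving out a pair gave up to 0.53) and against WT pairs 3 and 4 (-0.16), and for Cpn60beta3 as deposited (0.31). Cpn60beta3 passed with every sample its own replicate (limma adjusted p = 0.0304). The causes were not tested. The correlations as deposited and the comparisons of PRK with other genes within WT subsets were added after seeing the data. Sequencing depth does not apply to arrays, and dim probes near the floor limit the folds of AT2G04700 and Cpn60beta4.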
